A study of Mus musculus with 20 samples.

Results

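The genes described here encode the protein subunits of the mitochondrial oxidative phosphorylation complexes I to V. Members were all probes whose gene symbol in the platform annotation starts with Nduf, Uqcr, Cox4 to Cox8 or Atp5, or is Sdha, Sdhb, Sdhc or Sdhd. They numbered 135 of 45281 probes and stood for 87 of 19057 named genes, 35 of complex I, 4 of complex II, 7 of complex III, 16 of complex IV and 16 of complex V. The other 9 carry the same prefixes but are no subunits, being Ndufaf assembly factors and a pseudogene, and were counted apart. The complex of every other gene was read from its symbol prefix alone. Ndufa4 is therefore counted with complex I, and Cox7a2l, a supercomplex assembly factor, with complex IV. A probe was tested if 5 or more arrays had a detection p under 0.05, which held for 121 member probes of 83 genes. The 4 genes without a tested probe were Ndufs1 of complex I, Cox7b2 and Cox8c of complex IV, which are known as testis forms, and the assembly factor Ndufaf6. Each was detected on 0 arrays, which says nothing about the gene where the probe itself fails.

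The samples were atrial appendages of CD1 mice aged 12 weeks, measured on Illumina bead arrays as 4 groups of 5 arrays. The groups were left atria of mice heterozygous for the mutant allele under study (LA het), left atria of wild-type littermates (LA wt), right atria of the heterozygous mice (RA het) and right atria of the wild-type mice (RA wt). The design compares the genotypes within each atrium and the left with the right atrium within each genotype. CD1 is an outbred strain, whole appendages hold muscle together with other cells, and the labels do not say which left and right samples came from the same mouse. The genotype labels were not checked against the array values. Some arrays stood apart by genes of other tissues: Ucp1 of brown fat read over 100 on 4 arrays, all from heterozygous mice, and Myl2 of ventricular muscle read over 1000 on 7 arrays.

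Complexes I and II pass electrons from NADH and succinate to ubiquinone, complex III hands them to cytochrome c, and complex IV gives them to oxygen. Complexes I, III and IV pump protons across the inner mitochondrial membrane, and complex V, the ATP synthase, makes ATP as the protons flow back. Heart muscle depends on this pathway and uses muscle isoforms of some complex IV subunits. Most subunits are encoded in the nucleus, and the transcription factors NRF1, GABPA and ESRRA are known regulators of many of them.

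Promoter windows of 250 bases before to 50 bases after the start were at hand in RefSeq (build GRCm38.p6) for 72 of the 87 genes, which lie on 17 chromosomes with at most 7 on any 1. They were searched on both strands for CGCATGCG (the core of the NRF1 site), CCGGAAGT (GABPA) and TCAAGGTCA (ESRRA), none of which contains another. The NRF1 letters, which read the same on both strands, stood in the windows of 11 of the 72 members (15.3%), against 559 of 27025 genes in the same table (2.07%). The form searched first, the same letters with a G before and a C after them, stood in 7 members (9.72%), against 290 genes of the table (1.07%). The GABPA letters stood in the windows of 4 members (5.56%), against 4.31% of all genes, and the ESRRA letters in 2 (2.78%), against 0.466%. Of the 11 members with the NRF1 letters, 6 had the match and 15 bases on either side wholly within the 250 bases before the start. The sequences of these 6 are shown. Each is written in the direction of its gene with the match in capitals and 15 bases on either side.
Atp5g2 (complex V), chr15:102671066-102671103, minus strand: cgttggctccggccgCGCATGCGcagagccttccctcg
Atp5j (complex V), chr16:84835101-84835138, minus strand: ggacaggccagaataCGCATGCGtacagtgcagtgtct
Atp5k (complex V), chr5:108434426-108434463, minus strand: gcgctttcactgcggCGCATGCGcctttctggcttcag
Cox6a1 (complex IV), chr5:115349097-115349134, minus strand: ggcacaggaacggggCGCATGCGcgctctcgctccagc
Ndufa11 (complex I), chr17:56717688-56717725, plus strand: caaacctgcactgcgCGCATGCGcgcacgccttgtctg
Ndufaf4 (complex I assembly factor), chr4:24897956-24897993, plus strand: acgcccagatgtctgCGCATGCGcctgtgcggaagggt
A match is a run of letters, not a measured binding site. The other members with the NRF1 letters were Atp5l, Ndufa8, Ndufaf5, Uqcr11 and Uqcrc1. Over all 11, the log2 difference between LA wt and RA wt was positive for 10 and ran from -0.25 for Cox6a1 to 0.36 for Atp5k. Of all 83 tested members, 79 (95.2%) were positive in that comparison. The difference between LA het and RA het was positive for 7 of the 11, against 42 of 83 members (50.6%). That between RA het and RA wt was positive for 9, against 61 of 83 members (73.5%). It ran from -0.039 for Ndufaf5 to 0.37 for Atp5g2. That between LA het and LA wt was positive for 6, against 36 of 83 members (43.4%), and ran from -0.24 for Atp5k to 0.38 for Cox6a1.

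The members gave bright signals in all 4 groups. Of the 121 tested member probes, 114 (94.2%) were detected on all 20 arrays, against 14339 (71.3%) of all 20097 tested probes. For 55 of the 83 genes (66.3%) the mean signal of the brightest tested probe, which stood for the gene throughout, was over 5000, against 3.29% of all tested probes, and for 22 it was over 20000. The highest signal on any array is 38625.9. Atp5b and Atp5g3, the catalytic beta subunit and a c-ring subunit of ATP synthase, reach it on some arrays, so differences of the brightest members may be compressed. Probe signals do not rank transcripts by abundance, since each probe binds with its own strength.

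Signals were taken to log2 after adding 16, and differences below are log2 differences between group means from 1 limma fit to all 20 arrays. A probe was called at a Benjamini-Hochberg adjusted p under 0.05 over all tested probes of a comparison. No member was called in any of the 6 comparisons made: left against right in heterozygous mice, in wild-type mice and averaged over the genotypes, heterozygous against wild type in the left and in the right atrium, and the interaction of genotype and side. Over all tested probes limma called 2.55% between LA het and RA het, 3.26% between LA wt and RA wt and 7.2% between the averaged sides. It called 0.00995% for each genotype comparison and for the interaction. At an unadjusted p under 0.05, 4, 5, 14, 2, 2 and 1 of the 83 member genes passed in the same order. As shares of the members these were 4.82%, 6.02%, 16.9%, 2.41%, 2.41% and 1.2%, each below the share of all named genes, which was 14.6%, 13.9%, 20.2%, 5.37%, 5.42% and 2.96%. Single complexes did not all lie below it. For the averaged sides 6 of 14 genes of complex IV (42.9%) and 2 of 4 of complex II (50%) passed. The share was 5.88% in complex I, 14.3% in complex III, 12.5% in complex V and 12.5% in the non-subunits. The members were measured tightly, with a median standard error of 0.11 for a difference between 2 groups. Most intervals excluded a 1.5-fold change of the measured signal. The 95% confidence interval lay within 1.5-fold for 71 of 83 genes between LA wt and RA wt and 75 between LA het and RA het. It did so for 69 between LA het and LA wt and 75 between RA het and RA wt. Of all 11154 named genes, 7876, 7687, 8462 and 8286 lay within it in the same order. Where the brightest signals are compressed, such an interval does not exclude a 1.5-fold change of the transcript.

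The common feature of the members was a small left-sided lean in wild-type mice. Of the 83 genes, 79 (95.2%) had a higher mean in LA wt than in RA wt, with a median log2 difference of 0.11 (1.08-fold), against 54.1% and a median of 0.017 for all 11154 named genes tested. Each gene's level was also set against its own mean over the 20 arrays, and the median of these deviations over the 83 genes taken per array. It ran from -0.021 to 0.089 in LA wt, against -0.091 to -0.060 in RA wt, so the arrays of the sides did not overlap. The mean was 0.039 ± 0.041 in LA wt and -0.073 ± 0.012 in RA wt (SD, n = 5 each). Members are measured on the same arrays and are not independent, so their count is no test of the difference.

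On all arrays together, the heterozygous atria did not show this lean. The same median deviation ran from -0.037 to 0.076 in LA het (mean 0.028 ± 0.059), against -0.073 to 0.095 in RA het (mean -0.0036 ± 0.076, SD, n = 5 each), and the sides overlapped widely. Between LA het and RA het, 42 of 83 genes (50.6%) had a positive difference, with a median of 0.0062. That median was 0.093 without the 4 arrays with Ucp1 and 0.073 without the 7 with Myl2, alternatives chosen after seeing the data. RA het replicates 1 and 4 stood at 0.062 and 0.095, level with the left atria, while replicates 2, 3 and 5 stood between -0.073 and -0.050, near the RA wt arrays. Averaged over the genotypes, 69 of 83 genes (83.1%) had a positive difference with a median of 0.071. The interaction, which tests whether the sides differ more in one genotype than in the other, had a negative value for 60 of 83 genes, with a median of -0.090, and no member passed it (lowest unadjusted p 0.0227 for Ndufaf3, limma adjusted p 1.00). A smaller side difference in heterozygous mice is therefore not shown for any single member.

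**Figure D1:**
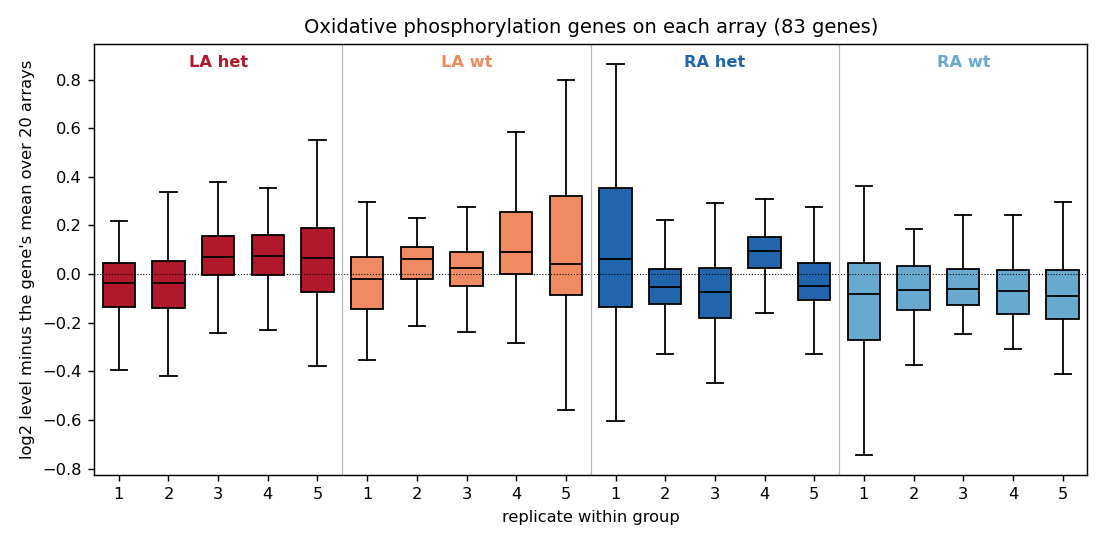
Box plots of 83 oxidative phosphorylation genes on each of the 20 arrays, as log2 level minus the gene's mean over all arrays. Lines mark medians, boxes the quartiles and whiskers the last value within 1.5 times the box. The 5 RA wt medians lie between -0.091 and -0.060, below all 5 LA wt medians, and the RA het medians spread from -0.073 to 0.095.

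Complex I, the complex with the most members, had 32 of 34 genes with a positive difference between LA wt and RA wt (median 0.097), against 13 of 34 between LA het and RA het (median -0.018). Ndufb3, an accessory subunit of the membrane arm, came nearest to a call of all members. Its signal was 3689.6, 3747, 4242.4, 3887.8 and 3847.2 on the LA het arrays and 3563, 3809.2, 3511.7, 3983.4 and 3990.5 on the LA wt arrays, against 3185.2, 3801.5, 3503.3, 3668 and 3358.3 on the RA het arrays and 2964.9, 3608.3, 3341.2, 3144 and 3103.2 on the RA wt arrays. Most left arrays were above most right arrays, with overlap at RA het replicates 2 and 4 and RA wt replicate 2. The averaged side difference of Ndufb3 was 0.19 (SE 0.057, limma adjusted p 0.0559). Leaving out RA het replicate 2 gave an adjusted p of 0.0487 and leaving out RA wt replicate 2 gave 0.0342.

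Ndufa9, an accessory subunit where the peripheral arm joins the membrane arm, had the largest averaged side difference of complex I, 0.22 (SE 0.079, limma adjusted p 0.111). Its signal was 9657.7, 8498.1, 9088.7, 10045.2 and 8845.6 in LA het, against 5624.2, 7974, 7275.2, 8099 and 8744.7 in RA het. The sides of the heterozygous mice overlapped only where RA het replicate 5 passed LA het replicate 2, and RA het replicate 1 was the lowest of all arrays. The difference was 0.30 between LA het and RA het (limma adjusted p 0.209) and 0.14 between LA wt and RA wt (0.757). Ndufb7 had the largest value of complex I between LA wt and RA wt, 0.28 (SE 0.11, limma adjusted p 0.276), against -0.053 between LA het and RA het. Ndufc2 gave -0.096 between LA wt and RA wt (limma adjusted p 0.875), but its other tested probe gave 0.38, and Ndufs6 gave -0.022.

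Complex II, succinate dehydrogenase, had all 4 genes with a positive side difference in both genotypes. Sdhb, the iron-sulfur subunit, had a signal of 5124.2, 4390.2, 5781.8, 5251.3 and 5020.4 in LA het and 4354.6, 4530.6, 4729.8, 5762.7 and 5479.5 in LA wt, against 4269.8, 4395.2, 3904.2, 4839.4 and 4684.1 in RA het and 3024.5, 5124.2, 4431.2, 4028.8 and 4160 in RA wt. The sides overlapped in both genotypes, and RA wt replicate 1 was the lowest. The averaged side difference of Sdhb was 0.24 (SE 0.088, limma adjusted p 0.124) and that of the membrane anchor Sdhc 0.16 (SE 0.063, limma adjusted p 0.154). A second Sdhc probe gave -0.21 between LA het and RA het, where the brighter one gave 0.17. Sdhc had a signal of 12503.2 to 13953.5 in LA het, against 10521.2 to 12959.1 in RA het, and of 12663 to 14173.3 in LA wt, against 10159.8 to 12883.7 in RA wt. The other anchor subunit, Sdhd, had a wider spread within groups and an averaged difference of 0.16 (SE 0.13). The flavoprotein gene Sdha was detected on 5 of 20 arrays by its only tested probe, at signals of at most 28.1, and carries no weight here.

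Complex III had 7 of 7 genes with a positive difference between LA wt and RA wt (median 0.12), against 3 of 7 between LA het and RA het. The core subunit Uqcrc2 had an averaged side difference of 0.19 (SE 0.081, limma adjusted p 0.224), and a range of 13906.3 to 20318.6 in LA het, against 11293.9 to 16443.5 in RA het. The largest value between LA wt and RA wt was that of Uqcrfs1, the Rieske iron-sulfur protein, at 0.57 (limma adjusted p 0.36). Its probe was detected on 12 of 20 arrays and read at most 35, so its size depends on the offset.

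Complex V had 16 of 16 genes with a positive difference between LA wt and RA wt (median 0.12), against 7 of 16 between LA het and RA het (median -0.0066). Atp5d, the delta subunit of the central stalk, had an averaged side difference of 0.19 (SE 0.076, limma adjusted p 0.177). The largest value between LA wt and RA wt was that of Atp5md, a small membrane subunit, at 0.49 (SE 0.26, limma adjusted p 0.49), and that between LA het and RA het was -0.12. Atp5b, the catalytic beta subunit, gave 0.0036 and -0.012 for these comparisons. The 8 tested non-subunits all had a positive difference between LA wt and RA wt (median 0.19), against 4 of 8 between LA het and RA het. Ndufaf7 had the largest of these between LA het and RA het, 0.46 (SE 0.26, limma adjusted p 0.493), and Ndufaf3 the lowest, -0.31 (SE 0.15, limma adjusted p 0.393). Between LA wt and RA wt the largest of the non-subunits was Ndufaf8, at 0.21, and it was not called.

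**Figure D2:**
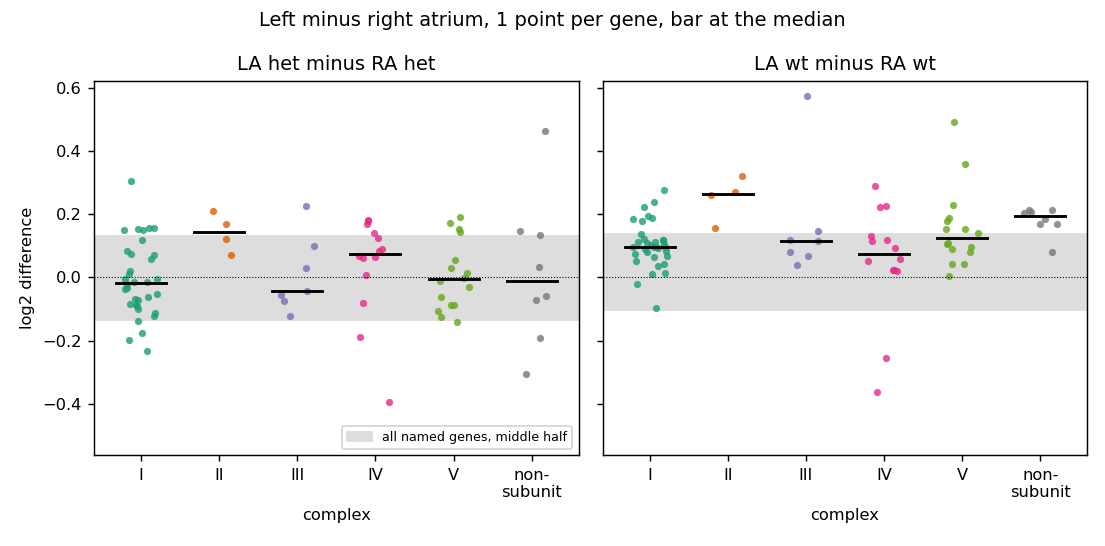
Left minus right log2 differences of the 83 member genes by complex, in heterozygous mice on the left and wild-type mice on the right. Each point is a gene, black bars are medians and the grey band holds the middle 50% of all named genes. Between LA wt and RA wt 79 points lie above 0, against 42 between LA het and RA het.

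Complex IV, cytochrome c oxidase, had a median side difference of 0.075 between LA het and RA het (11 of 14 genes positive) and of 0.075 between LA wt and RA wt (12 of 14). Cox5a, a nuclear-encoded subunit on the matrix side, had a signal of 21456.8, 22835.2, 23777.1, 24533.1 and 22906 in LA het and 22133.5, 23575.4, 22354.2, 22590.8 and 23188.7 in LA wt, against 18949.5, 19186.5, 20705.9, 22133.5 and 21119.3 in RA het and 18776.6, 21701.1, 22133.5, 21456.8 and 20933.1 in RA wt. LA het replicate 1 and LA wt replicate 1, the lowest of their groups, were the only left arrays that came down to the level of right ones. Its averaged side difference was 0.15 (SE 0.053, limma adjusted p 0.112).

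Cox7a1, the heart and skeletal muscle form of subunit VIIa, had a signal of 34092.5, 32527.8, 34627.1, 32035.4 and 31736.2 in LA wt, against 30248.6, 29023.4, 29273.7, 26217.9 and 26717.7 in RA wt. All 5 LA wt arrays were above all 5 RA wt arrays. The difference was 0.22 (SE 0.079, 95% confidence interval 0.058 to 0.389, limma adjusted p 0.175), and it was not called. In heterozygous mice the signals ran from 30689.4 to 34367 in LA het, against 27935.7 to 34367 in RA het, a difference of 0.064 (limma adjusted p 0.808). Its partner Cox7a2, the form of other tissues, gave 0.020 between LA wt and RA wt and -0.19 between LA het and RA het.

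Cox4i1, the common form of subunit IV, had an averaged side difference of 0.13 (SE 0.061, limma adjusted p 0.256). The dim Cox4i2, the form induced by low oxygen and known best from lung, had the opposite sign, with 18.8 to 41.8 in LA het and 14.7 to 25 in LA wt, against 29.2 to 62.6 in RA het and 20.4 to 50.4 in RA wt. Its averaged side difference was -0.38 (SE 0.13, limma adjusted p 0.107), from a probe near the detection limit on several arrays. Cox6a2 and Cox8b, the muscle forms of their subunits, gave averaged side differences of 0.059 and 0.098, and Cox6b1, the widely expressed form of subunit VIb, gave 0.056. Cox6b2 had the largest value of complex IV between LA wt and RA wt, 0.29, and the lowest between LA het and LA wt, -0.30. Its probe was dim, reading 28.9 to 104.1, and neither difference was called. Cox5b had the largest value of complex IV between LA het and RA het, 0.18, and was not called.

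**Figure D3:**
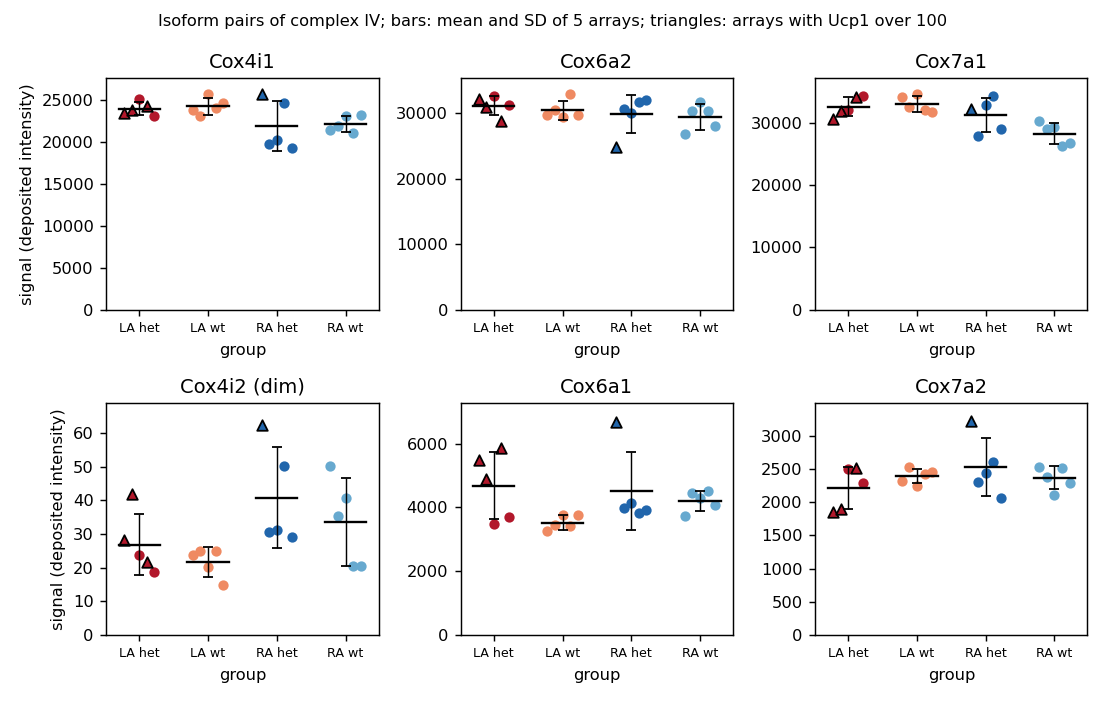
Signals (deposited intensity) of 3 isoform pairs of complex IV on the 20 arrays, with lines at group means and bars of 1 SD (n = 5). Triangles mark the 4 arrays with a Ucp1 signal over 100. Cox6a1 reads 4901.6 to 6687 on those 4 arrays and at most 4505.4 on the other 16, and Cox7a1 separates LA wt from RA wt.

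Between the genotypes the members stayed close together. In the left atrium 36 of 83 genes (43.4%) had a higher mean in LA het than in LA wt, with a median difference of -0.016, against 49.8% and -7e-04 for all named genes. In the right atrium 61 of 83 (73.5%) were higher in RA het than in RA wt, with a median of 0.076 (1.054-fold), against 53.1% and 0.0125. By complex, the right atrial median was 0.085 for complex I, 0.047 for complex II, 0.12 for complex III, 0.0014 for complex IV and 0.049 for complex V. The right atrial median was 0.048 without RA wt replicate 1 and also 0.048 without RA het replicate 4. RA het replicate 4 is 1 of the 2 RA het arrays with high member levels.

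Cox6a1, the form of subunit VIa outside muscle, had the largest positive difference of complex IV between LA het and LA wt. Its signal was 5494.5, 4901.6, 3489.7, 5878.7 and 3686.1 in LA het, against 3253.6, 3438.2, 3750.4, 3414.9 and 3766.7 in LA wt, and 6687, 3978.8, 4127, 3821 and 3916.8 in RA het, against 3723.5, 4441.4, 4311.5, 4505.4 and 4070.7 in RA wt. LA het replicates 1, 2 and 4 and RA het replicate 1 stood above every other array. The difference between LA het and LA wt was 0.38 (1.303-fold, SE 0.16, 95% confidence interval 0.056 to 0.707, limma adjusted p 1.00), and a second Cox6a1 probe gave 0.46. It was not called.

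Those 4 arrays were also the only ones with a signal over 100 for Ucp1, the uncoupling protein of brown fat, at 323.1, 165.8 and 906.6 in LA het replicates 1, 2 and 4 and 446.7 in RA het replicate 1. On the other 16 arrays Ucp1 read at most 6.3. Without the 4 arrays, which leaves 2 LA het arrays, the Cox6a1 difference between LA het and LA wt was 0.027 (limma adjusted p 1.00). These were also the 4 arrays with the highest Cox6a1 signal, so leaving them out had to lower the difference. Ucp1 was detected on too few arrays to be tested, and its part in the Cox6a1 values was not tested. Cox6a2, the muscle form of the same subunit, had a signal of 24832.9 on RA het replicate 1 and 26717.7 and 27935.7 on RA wt replicates 1 and 5, while every other array read between 28767.3 and 32864.2.

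The remaining members with an unadjusted p under 0.05 for genotype were Ndufb11 in the left atrium and Ndufa6 and the pseudogene Ndufs5-ps in the right. Ndufb11, an accessory subunit of complex I, gave -0.38 between LA het and LA wt (SE 0.18, limma adjusted p 1.00) from a probe reading 34 to 108.5 on all arrays, and its other probe gave 0.0017. Ndufa6, another accessory subunit, had a signal of 21573.7, 12287.8, 14676.9, 15354.5 and 12792.5 in RA het, against 13684.9, 10918.1, 12531.3, 12174.9 and 12128.9 in RA wt. The groups overlapped, and RA het replicate 1 was far above the rest. The difference was 0.29 (SE 0.13, limma adjusted p 0.838). Atp5g2, a c-ring gene, had the largest value in the right atrium, 0.37 (SE 0.21, limma adjusted p 0.838). In the left atrium Atp5md gave -0.47 (SE 0.26) and Uqcrfs1 -0.47 (SE 0.26).

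**Figure D4:**
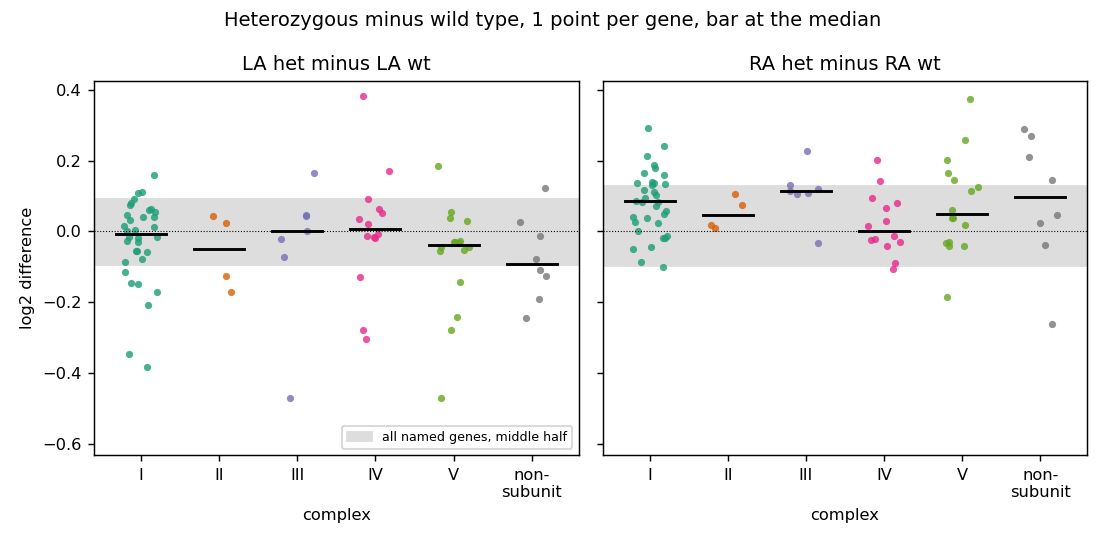
Heterozygous minus wild-type log2 differences of the 83 member genes by complex, in left atria on the left and right atria on the right. Each point is a gene, black bars are medians and the grey band holds the middle 50% of all named genes. No point passed the limma test, and 61 of 83 lie above 0 between RA het and RA wt, against 36 between LA het and LA wt.

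Members also differed in how far they varied among arrays of 1 group. The pooled within-group SD of the log2 level had a median of 0.156 over the 83 genes and ran from 0.0675 to 0.537. The 10 widest genes among those detected on all arrays, picked after their values were seen, were Atp5md, Ndufaf7, Ndufb4, Uqcrq, Atp5k, Ndufaf5, Atp5e, Atp5g2, Cox7b and Cox7a2l, with SDs of 0.325 to 0.437. Atp5md had a signal of 1341.2, 1451.9, 1810.1, 2134.8 and 3243.7 in LA het and 1973.2, 2363.9, 2175.7, 3383.4 and 3651.9 in LA wt. In the right atria it had 3118.6, 1771.9, 1532, 2252.8 and 1980 in RA het and 1513, 1709.6, 1353.5, 2159.7 and 2995.8 in RA wt.

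Ndufb4, an accessory subunit of complex I, ran in much the same order, with 1554, 1833.3, 2077.9, 2377.3 and 3211.4 in LA het, 1924.7, 2341.6, 2268.7, 3520.1 and 4181.6 in LA wt, 3600.2, 1923.7, 2076.4, 2608.4 and 2402.6 in RA het and 1933.6, 2133.6, 2147.4, 3049.3 and 3879.5 in RA wt. LA het replicate 5, LA wt replicates 4 and 5, RA het replicate 1 and RA wt replicate 5 were the 5 highest arrays for both genes. Of the 10 widest genes, 7 to 9 were above their own mean on LA het replicates 4 and 5, LA wt replicates 4 and 5, RA het replicates 1 and 4 and RA wt replicates 4 and 5, against 1 to 5 on the other 12 arrays. Their median deviation was 0.411 on LA het replicate 5, 0.428 and 0.604 on LA wt replicates 4 and 5 and 0.436 on RA het replicate 1, and at most 0.213 on every other array. This pattern ran across all 4 groups, but not all 10 genes followed it. Uqcrq stood at -0.613 on LA het replicate 5 and at -0.492 and -0.313 on LA wt replicates 4 and 5. Atp5g2 stood at -0.174 on LA wt replicate 5, and Ndufaf7 at -0.890 on RA het replicate 1. The probes of Uqcrq and Ndufaf7 were dim, reading 57.5 to 134.2 and 45.9 to 156. The labels give no slide or extraction batch to set beside it.

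**Figure D5:**
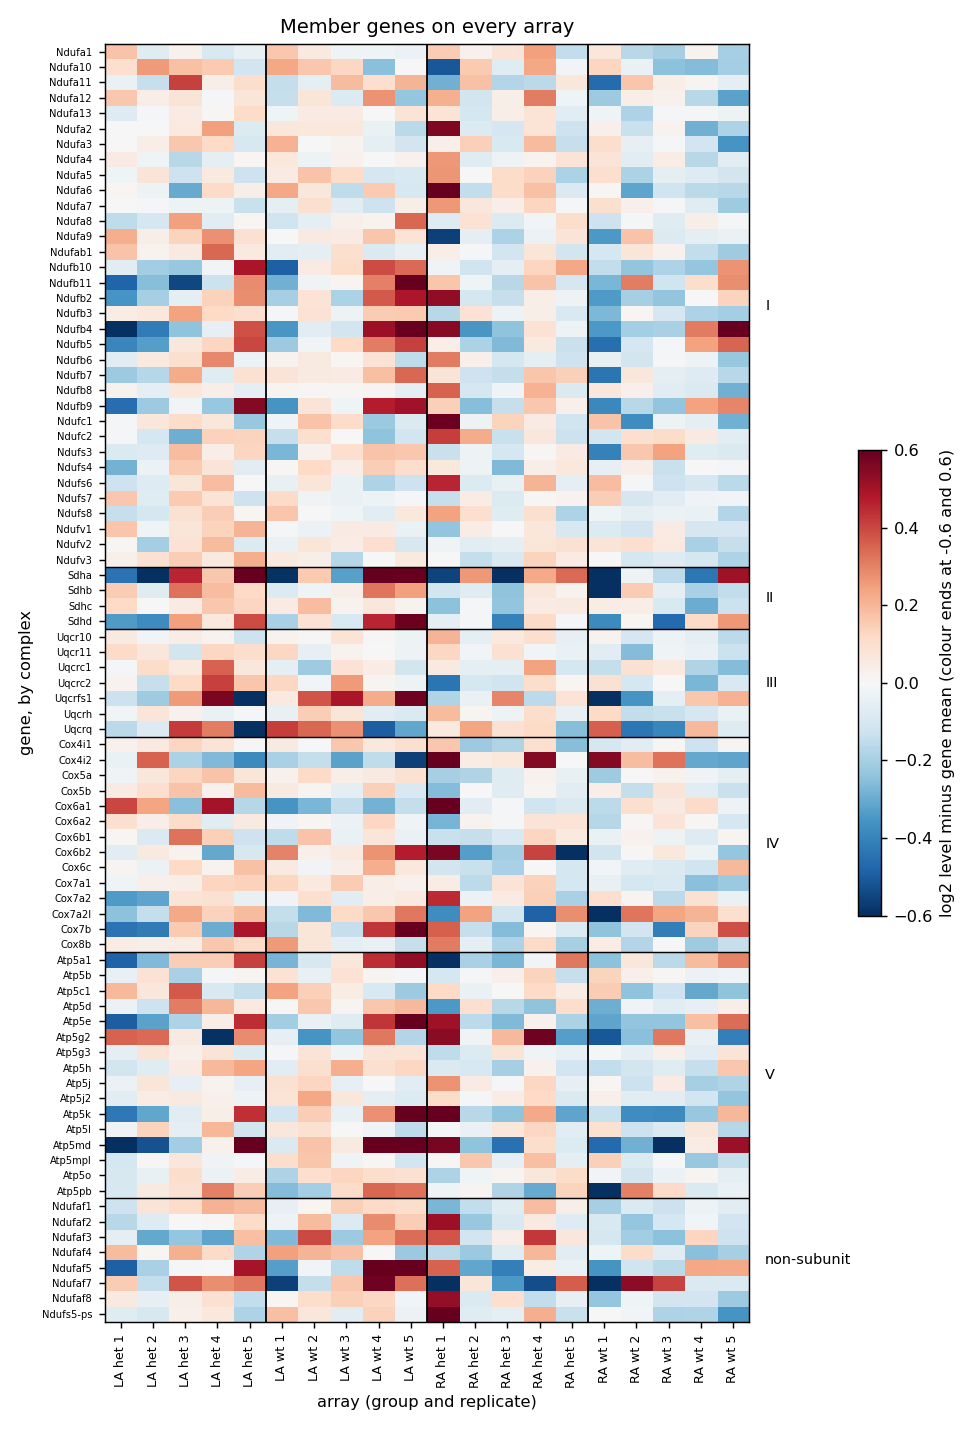
Log2 level minus the gene's mean over 20 arrays for the 83 member genes (rows, by complex) on every array (columns, by group). Red is above the gene's mean and blue below, with the colour scale ending at -0.6 and 0.6. Blocks of red at LA het replicate 5, LA wt replicates 4 and 5 and RA het replicate 1 lie in rows such as Ndufb4, Atp5e and Atp5md.

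Some genes that work next to the complexes passed the test between the sides, in both directions. Atpif1, the inhibitor of ATP synthase, lies outside the members by its symbol. Its signal was 13257.8, 13312.4, 13558.1, 14075.9 and 13211.5 in LA wt, against 10102.8, 10268, 10381.9, 9900.3 and 11096.2 in RA wt, with no overlap. It rose by 0.38 in LA wt over RA wt (SE 0.092, limma adjusted p 0.0219), and between LA het and RA het the difference was 0.30 (limma adjusted p 0.109), with RA het replicate 1 at the level of the left atria.

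Ckmt2, the muscle form of mitochondrial creatine kinase, which carries phosphate from new ATP to creatine, had a signal of 13312.4, 13121.1, 15170.2, 13121.1 and 13003.6 in LA het, against 5954.5, 9940.1, 8038.1, 13558.1 and 8539.5 in RA het. Only RA het replicate 4 reached the left atria. Ckmt2 rose by 0.61 in LA het over RA het (limma adjusted p 0.0479) and by 0.63 in LA wt over RA wt (limma adjusted p 0.0307). Averaged over the genotypes, Ckmt1, the form of other tissues, was lower on the left by -0.85 (limma adjusted p 0.00672). Both belong to a list of energy transfer genes with 9 tested, of which 1 rose and 1 fell in that comparison, beside 7.2% of all tested probes called. Within each genotype only Ckmt2 of the list was called between the sides, beside 2.55% of all tested probes in heterozygous and 3.26% in wild-type mice.

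Of 12 tested genes of the TCA cycle, which feeds complexes I and II, 3 rose and 0 fell on the left when averaged over the genotypes, with a list median of 0.19. They were Cs, citrate synthase, at 0.54 (limma adjusted p 0.012), Mdh2, mitochondrial malate dehydrogenase, at 0.27 (0.0212) and Dlst, a subunit of the oxoglutarate dehydrogenase complex, at 0.30 (0.0434). Of 25 assembly genes outside the Nduf prefix, 1 rose and 1 fell in the same comparison, Sco1, a copper chaperone of complex IV, at 0.23 (limma adjusted p 0.0456) and Cox19, also of complex IV assembly, at -0.34 (0.024). These 2 of 25, and the 3 of 12 of the TCA cycle, stand beside 7.2% of all probes called. Between LA wt and RA wt 23 of the 25 assembly genes had a positive difference (median 0.15), against 15 between LA het and RA het (median 0.054). Cytochrome c (Cycs) gave 0.17 (limma adjusted p 0.167) and Cyc1, the cytochrome c1 subunit of complex III that the symbol rule leaves out, 0.30 (0.17). None of these genes was called between the genotypes, where 2 of 20097 probes passed in each atrium.

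Whole tissue was measured, so fewer cells of a type and less RNA per cell cannot be told apart. Of the cardiomyocyte markers 9 of 10 were tested and 0 were called between the sides, and their summed signal ran from 229326.8 to 242609.7 in LA wt, against 236425.8 to 249310.2 in RA wt. Of these markers Nppa reached the highest signal, 38625.9, on some arrays, and Myh6, Actc1, Myl7, Myl4 and Sln were near it. A difference in this sum may be compressed, so equal muscle content of the sides is not shown. The summed signal of 4 macrophage markers ran from 1044 to 1397.8 in LA wt, against 1679.6 to 2484.9 in RA wt, and all 4 fell in LA wt relative to RA wt, with differences of -0.62 to -1.69. The summed signal of 6 endothelial markers ran from 6016.6 to 8845 in LA wt, against 8683.3 to 10765.6 in RA wt, with 1 of 6 called. The summed signal of 3 tested smooth muscle markers ran from 1611.5 to 4268.2 in LA wt, against 4895.9 to 21645.5 in RA wt, with no overlap, and 1 of the 3 fell. That of 4 skeletal muscle markers ran from 29497 to 35774 in LA wt, against 37203.5 to 45441.5 in RA wt, also with no overlap, and 1 rose and 1 fell. The sum was mostly Myl1, which ran from 22476.8 to 28490.7 in LA wt, against 29929.5 to 33017.4 in RA wt. Tnni2 went the other way, from 534.2 to 1051 in LA wt, against 89.4 to 169 in RA wt. Of the 4, 2 had a positive difference and 2 a negative one. The summed signal of 6 fibroblast markers ran from 25895 to 31494.9 in LA wt, against 29970.3 to 35331.5 in RA wt, and 1 of the 6 fell. The part of these cells in the member differences was not tested.

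Myl2, the ventricular form of regulatory myosin light chain, read over 1000 on 7 arrays, LA het replicate 2, RA het replicates 1, 3 and 4 and RA wt replicates 2, 4 and 5, up to 33896.9 on RA het replicate 4. Without these arrays, which leaves 2 in each right atrial group, 64 of 83 genes had a positive difference between LA het and RA het (median 0.073) and 63 of 83 between LA wt and RA wt (median 0.093). The right atrial genotype median was then -0.005, with 40 of 83 positive. The 2 RA wt arrays kept in that fit read 698.2 and 923.7 for Myl2, against 59.4, 43.9, 106, 34.9 and 6.9 in LA wt. Leaving out the 7 arrays therefore did not level Myl2 between the wild-type sides. On all arrays Myl2 was called between LA wt and RA wt, at -5.645 (limma adjusted p 0.00868). Without the 4 arrays with Ucp1 over 100, 57 of 83 genes were positive between LA het and RA het, with a median of 0.093. No wild-type array had Ucp1 over 100, so that fit could not change the wild-type side difference, whose positive count was 63 without the Myl2 arrays, against 79 on all arrays.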

How the data were processed

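Total RNA was isolated with RNeasy columns, had its quality assessed by Bioanalyser and was amplified to biotinylated cRNA for Illumina arrays, per the labels' protocols. The deposited table holds the authors' intensity and a detection p-value for each probe and array. Which scanner software and normalization method were used is not given in the sources used here. Between 33.7% and 33.9% of an array's deposited intensity values lie below 0, and the sorted values differ by at most 1.8 between arrays, so a background had been subtracted and quantiles equalised, and neither step was repeated. Detection columns deposited as p-values are high for bright probes, hence 1 minus p, and were turned round. A second deposited table is identical (largest difference 0). Arrays detected 17316 to 19422 probes, and array pairs correlated between 0.948 and 0.99.

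Symbols were read from the annotation table of the platform, with 1 symbol for 34885 probes, several for 18 and none for 10378. Values below 0 were set to 0, an offset of 16 was added and log2 taken, which understates changes of dim probes. With limma 3.58.1 in R 4.3.3, 4 group means were fitted to 20 arrays over 20097 probes, and p-values were adjusted by Benjamini-Hochberg per comparison. The fit was tested on simulated data. Of 28 genes with several tested probes, 0 had probes past 2 standard errors in opposite directions, but the probes had the same sign in only 12 (LA het against LA wt) to 24 (LA wt against RA wt) of the 28. The gene altered in the heterozygous mice is not reported here. The labels describe separate mice, do not say that replicate numbers pair samples, and no pairing was used. The number of arrays limits the precision.

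Members, gene lists, tests and the rule for named genes were chosen with earlier results of these data known. The rule took members called anywhere, the largest value in each direction per complex and comparison, isoform genes, complex II, and called genes of the lists. Some called genes of the cell type lists are given only as counts. Ndufb3, Ndufb4 and others picked for small p or wide spread were added after their values were seen. The NRF1 core of 8 letters replaced a form of 10 letters after the matches of that form had been seen, and both counts are given. Alternatives covered correction, offset, floor, normalization, filter, probes per gene, variance model, array weights, arrays fitted, replicate number as a block, other tissue and each array left out.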

Additional observations from a re-analysis of the deposited data

Results flagged for a closer look

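Among 152 groups of 5 arrays, those of 37 named members and of the members' median deviation, 4 held an array whose gap to the nearest other exceeded Dixon's critical value of 0.71 of the group's range, and chance gives about 1 in 20. In RA het, Cox6a1 had a signal of 6687 on replicate 1, against 3821 to 4127 on the other 4 arrays. In the same group and replicate, Cox6a2 had 24830, against 29929.5 to 31905.8. In RA wt, Cox7a2l, a supercomplex assembly factor, had 1347 on replicate 1, against 2476 to 2891.4. In LA wt, Ndufab1, the mitochondrial acyl carrier protein, had 15350 on replicate 3, against 13558.1 to 13953.5. RA het replicate 1 also had the lowest array weight, 0.235, and RA wt replicate 1 the next lowest, 0.447.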

How the results depend on the processing

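No member was called with the settings reported above, and 1807 of 1852 values of 52 named differences kept their direction and side of the threshold. Counts of called members for the averaged sides were 1 with an offset of 1, 1 with an offset of 50 and 1 with detection on all 20 arrays (Ndufb3 in each), 2 without a filter and 2 with trend and robust variances (Ndufb3 and Cox5a, Cox5a with a limma adjusted p of 0.0247 and 0.0288 at a difference of 0.15). With array weights 4 were called for the averaged sides (Cox4i1, Cox7a1, Ndufb3 and Sdhc) and 1 between LA wt and RA wt (Cox7a1, 0.26). Without the 7 arrays with Myl2 over 1000, an alternative chosen after seeing the data, 1 was called in each of these comparisons, Cox4i2 at -0.48 and -0.71. Leaving out each array in turn called 0 to 1 members for the averaged sides and 0 to 0 elsewhere. Between LA wt and RA wt, the count of positive genes ran from 75 to 79 over these fits and the median from 0.105 to 0.136.

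The interaction median was -0.029 without the arrays with Ucp1 over 100 (37 genes positive) and -0.010 without those with Myl2 over 1000 (37 positive), and the side median of heterozygous mice was 0.093 and 0.073 (64 positive in the second). The right atrial genotype median was -0.005 without the Myl2 arrays (40 positive). Named differences that changed sign were under 2 standard errors on all arrays, except Ndufa6 and Ndufs5-ps between RA het and RA wt, and the cause was not tested. With a floor of 16, Uqcrfs1 between LA het and RA het was 0.12. With array weights, Atp5k between LA het and RA het was 0.013 and Uqcrc2 between RA het and RA wt 0.051. With Myl2, Adipoq and Upk3b as covariates, Atp5k was 0.017 between LA het and RA het, Sdha -0.17 and Cox4i2 0.0036 between LA wt and RA wt, Atp5g2 0.18 and Ndufaf7 -0.061 for the averaged sides, and Sdhb -0.072 and Atp5g2 -0.19 between LA het and LA wt. Without the Ucp1 arrays, Atp5k was 0.31 between LA het and RA het, Atp5g2 0.071 and Ndufaf3 0.037 for the averaged sides, Sdhd 0.15 between LA het and LA wt, and Uqcrc2 0.050 between RA het and RA wt. Without the Myl2 arrays, Atp5k was 0.23 between LA het and RA het, and Atp5g2 0.099 and Ndufaf3 0.093 for the averaged sides. Between RA het and RA wt, Ndufa6 was then -0.063, Ndufb5 0.072, Cox4i2 -0.42, Cox7a2l 0.53, Atp5g2 -0.078, Atp5a1 0.26, Ndufs5-ps -0.011 and Ndufaf7 0.41. Over the fits without 1 array, Uqcrfs1 ran from -0.29 to 0.12 and Atp5k from -0.27 to 0.057 between LA het and RA het, and Atp5g2 from -0.078 to 0.072 for the averaged sides. Sdhb ran from -0.0019 to 0.099 and Ndufaf7 from -0.036 to 0.25 between LA het and LA wt, and Sdhb from -0.0034 to 0.19 and Uqcrc2 from -0.086 to 0.050 between RA het and RA wt.

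Same-numbered arrays did not all correlate over 0.1, the bar for pairing: 2 of 5 pairs did for LA het with RA het (-0.296 to 0.118), 1 of 5 for LA wt with RA wt (-0.405 to 0.335), 3 of 5 for LA het with LA wt (-0.175 to 0.313) and 4 of 5 for RA het with RA wt (-0.11 to 0.311). Of the last, 3 of 5 correlated best with their own number, and whether a number marks a shared batch is not in the labels. With the replicate number as a block, fixed or within genotype at random, 0 members were called in every comparison. Each number occurs once per group, so the block cannot move a difference and bears on the errors alone. The fit to only the arrays of a comparison gives no value for the averaged sides or the interaction. Signal near background limits Sdha, Uqcrfs1 and Cox4i2, and the top of the signal range limits the brightest members.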

Other observations

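Of 15 tested regulators of mitochondrial genes, 9 had a positive difference between LA het and RA het (median 0.019) and 13 between LA wt and RA wt (median 0.098). Averaged over the genotypes 1 of the 15 rose on the left, beside 7.2% of all tested probes called. It was the nuclear receptor gene Esrrb, at 0.45 (limma adjusted p 0.0139), with 654.5 to 907 in LA het, against 428.5 to 631 in RA het. The wild-type sides overlapped, with 515.8 to 908.5 in LA wt, against 432 to 626.8 in RA wt. Within either genotype 0 of the 15 were called between the sides. Ppargc1a, the coactivator PGC-1alpha, gave -0.030, Esrra 0.053 and Tfam, a mitochondrial DNA packaging factor, -0.015, and none of these was called. Of 12 glycolysis genes 1 fell on the left, the glucose transporter gene Slc2a1, by -0.41 in LA het relative to RA het (limma adjusted p 0.0441) and by -0.38 averaged over the genotypes (0.00226). Its signal was 449.3 to 546.8 in LA het, against 634.5 to 780.6 in RA het, with no overlap. This 1 of 12 stands beside 2.55% of all tested probes called between LA het and RA het and 7.2% between the averaged sides. Of 6 genes of mitochondrial import, membrane structure and chaperones, 6 had a positive averaged difference, with a median of 0.082, and 0 were called by limma (0 at an unadjusted p under 0.05).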
